A study of Mus musculus with 30 samples.

Results

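Hypothalamic gene expression after a 24 h fast was set against that of fed mice, 3 libraries against 3. These 6 libraries were taken from 30 in the whole series by their labels alone, fed libraries 1 to 3 and 24 h fasted libraries 1 to 3, and every gene of the fasting count table was compared as 24 h minus fed. All animals were wild-type (WT) C57BL/6 (B6) mice. The fed group had food, the 24 h group had gone 24 h without it, and neither group was exposed to cold or refed. The sources used here give neither the age nor the sex of the mice, nor do they say that libraries came from separate animals, so p-values measure a spread between libraries. The same table holds 3 libraries of mice fasted for 72 h and 3 of mice fasted for 72 h in the cold, which shared in the estimate of that spread. Each library's median correlation with its own group was 0.992 to 0.995 in those 2 groups, 0.984 to 0.988 in fed and 0.987 to 0.993 in the 24 h group. The p-values thus draw in part on groups more alike than the fed group. Of 52286 genes in the table, 20408 had enough counts to be tested. Total counts were 27.1, 29.2 and 36.2 M (1e6 counts) in fed libraries 1 to 3 and 30.7, 27.7 and 32.4 M in 24 h libraries 1 to 3.

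The hypothalamus reads hormones and nutrients and sets hunger, body temperature and stress hormone release. In its arcuate nucleus, neurons that make AgRP and NPY drive feeding, and neurons that make POMC and CART restrain it. Fasting raises glucocorticoids from the adrenal gland, and these hormones bind the glucocorticoid receptor in neurons, glia and vessels and switch on genes such as Fkbp5. Levels are given below as CPM, a gene's counts per 1e6 counts of its library after scaling by TMM (edgeR's trimmed mean of M-values). Changes are log2 fold changes, 24 h over fed, ± SE from edgeR. A gene was called, and is said to have risen or fallen, when edgeR's quasi-likelihood test gave it a Benjamini-Hochberg adjusted p below 0.05. In RNA from whole tissue, fewer cells of a type and less RNA per cell cannot be told apart.

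In 5 of the 6 libraries more genes stood apart from the rest of the group than between the group means. Among 16101 genes that averaged 1 CPM or more, 765 genes of 24 h library 2 lay more than 2-fold from the other two libraries of its group, against 164 genes and 76 genes for 24 h libraries 1 and 3 and between 292 genes and 504 genes for the fed libraries. The means of the 2 groups were more than 2-fold apart for 148 genes (0.919%), all on log2(CPM + 0.1). The counts are unlike measures, since a single library varies more by noise alone than a mean of 3 does. The first principal component, with 47.3% of the variance, placed fed library 1, fed library 2 and 24 h library 2 on one side and fed library 3 and 24 h libraries 1 and 3 on the other. Reads assigned to mitochondrial-like pseudogenes made up 5.56%, 5.44% and 3.86% of fed libraries 1 to 3 and 3.67%, 6.97% and 4.01% of 24 h libraries 1 to 3, so the libraries on the first side were also the 3 richest in such reads. Fed library 2 further had the highest levels of liver and skeletal muscle transcripts, given below. Without 24 h library 2 the share of all genes at an unadjusted p below 0.05 was 9.9% as higher and 10.2% as lower, and without fed library 2 it was 3.67% and 4.18%. Gene lists whose values shifted without one of these libraries are given both ways below.

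**Figure D1:**
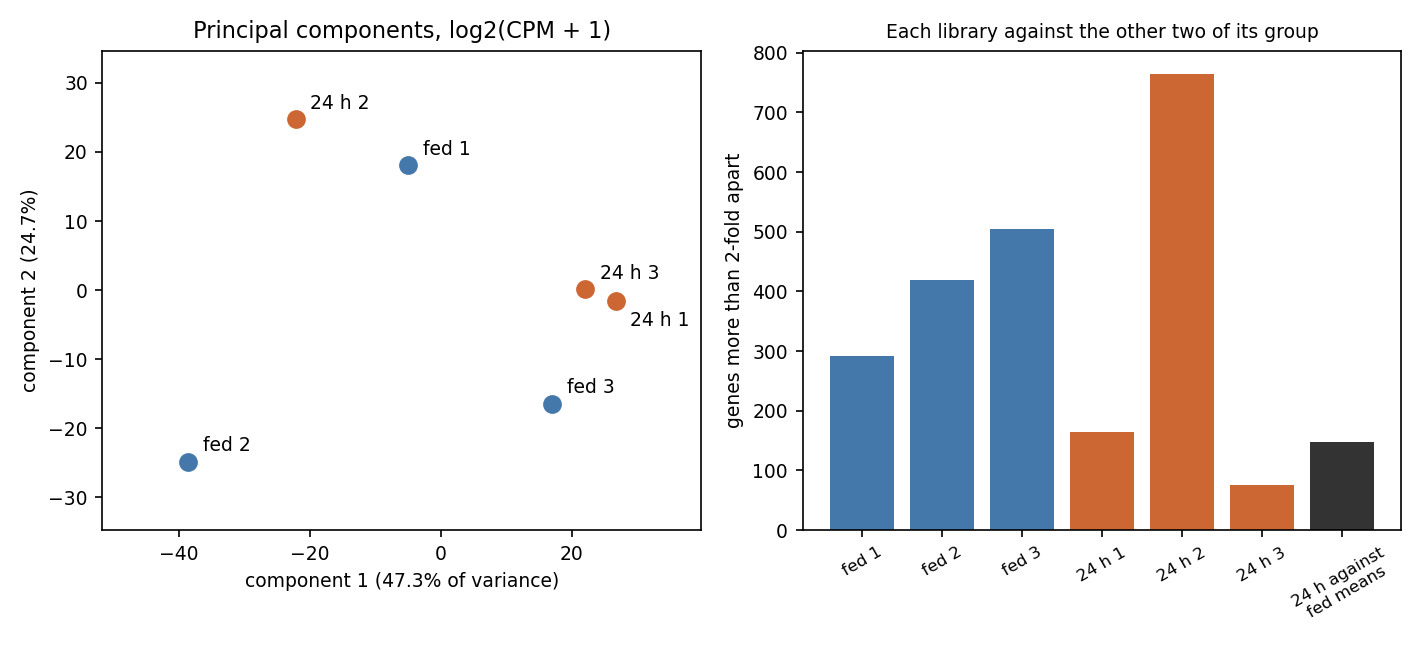
Left, the 6 libraries on the first and second principal components of log2(CPM + 1), which hold 47.3% and 24.7% of the variance, with fed libraries in blue and 24 h libraries in orange. Right, the number of genes of each library more than 2-fold from the other two of its group, and, in black, the number for which the group means are that far apart: the black bar (148 genes) is lower than 5 of the 6 library bars, against 765 genes for 24 h library 2. Single libraries vary more by noise alone than group means, so the bars are unlike measures.

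After 24 h without food 7 genes of 20408 were called (0.0343%), 5 higher (0.0245%) and 2 lower (0.00980%). The 5 that rose were Arrdc2, Fkbp5 and Cdkn1a, which glucocorticoids are known to induce, and Pla2g3 and Itgad. The 2 that fell, Myh11 and Ptprb, are genes of the vessel wall. In all 7 the fed and 24 h libraries did not overlap, and 2693 genes (13.2%) had that property over all genes tested, 1325 as higher (6.49%) and 1368 as lower (6.70%). Feeding peptides held no called gene.

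Arrdc2 encodes an arrestin-domain protein of membrane traffic (ENSMUSG00000002910, minus strand at chr8:70835129-70839720 in GRCm38, protein-coding). It was measured at 10.7, 7.93 and 8.28 CPM in fed libraries 1 to 3 and at 25.7, 23.5 and 26.6 CPM in the 24 h group 1 to 3. The lowest fasted library stood at more than 2 times the highest fed one. Arrdc2 rose 2.82-fold (1.49 ± 0.15 on the log2 scale, edgeR adjusted p = 0.00172). Arrdc2 kept its call under all 18 alternative settings, with log2 fold changes between 1.41 and 1.64.

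Fkbp5 encodes a co-chaperone that lowers the glucocorticoid receptor's affinity for its hormone (ENSMUSG00000024222, minus strand at chr17:28399094-28517527). Its fed libraries lay close together at 36.8, 37.1 and 35.3 CPM, and the 24 h libraries reached 75.9, 67.4 and 74.2 CPM. The spread within each group was small beside the gap between them, a rise of 1.99-fold (log2 fold change 0.99 ± 0.10, edgeR adjusted p = 0.00172). Fkbp5 also kept its call under all 18 settings, between 0.95 and 1.06. At 72 h the gene stood at 51.8 ± 4.72 CPM (SD, n = 3), below its 24 h level by more than the spread between libraries (72 h minus 24 h -0.48 ± 0.10, edgeR adjusted p = 0.0326), in a contrast that called 1.63% of all genes.

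The promoters of the 2 genes that kept their calls throughout are shown because both genes are known glucocorticoid targets. They run from 250 bases before the RefSeq start to 50 after it (GRCm38.p6, 5′ to 3′ on the gene's strand), and capitals mark matches to any motif searched. Both lie on the minus strand, Arrdc2 at chr8:70839671-70839970 and Fkbp5 at chr17:28486100-28486399.
Arrdc2: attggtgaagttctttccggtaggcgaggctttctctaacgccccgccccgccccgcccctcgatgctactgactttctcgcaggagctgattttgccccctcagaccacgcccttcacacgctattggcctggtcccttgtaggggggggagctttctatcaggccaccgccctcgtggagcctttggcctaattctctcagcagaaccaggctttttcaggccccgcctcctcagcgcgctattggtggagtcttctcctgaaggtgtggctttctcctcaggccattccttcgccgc
Fkbp5: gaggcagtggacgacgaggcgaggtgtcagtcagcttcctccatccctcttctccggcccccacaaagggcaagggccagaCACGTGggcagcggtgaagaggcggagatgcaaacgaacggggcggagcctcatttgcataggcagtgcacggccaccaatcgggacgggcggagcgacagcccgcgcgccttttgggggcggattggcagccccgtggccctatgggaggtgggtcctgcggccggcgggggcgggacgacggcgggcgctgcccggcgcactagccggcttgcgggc
The glucocorticoid receptor half-site TGTTCT, searched on both strands, was in neither window, and it was in 19.0% of all 32851 promoters of the table and in 5 of the 27 glucocorticoid-responsive genes with a promoter there (18.5%). The E-box CACGTG was in the Fkbp5 window (1 match), in 7.15% of all promoters and in 6 of these 27 (22.2%). The CRE, written TGACGTCA, was in neither window, in 1.79% of all promoters and in 2 of these 27 (7.41%). The forkhead motif, GTAAACA on either strand, was in neither window, in 3.65% of all promoters and in 1 of these 27 (3.7%). Shares of all promoters count promoters, while those of the list count genes, some with more than 1 promoter, so the 2 are unlike measures. A match describes letters in a short window and is not a binding site.

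Cdkn1a encodes p21, an inhibitor of cyclin-dependent kinases (ENSMUSG00000023067, plus strand at chr17:29090976-29100727). Fed libraries held 8.72, 6.68 and 7.17 CPM and 24 h libraries 28.5, 34.9 and 27.9 CPM. The groups lay far apart, 4.05-fold (log2 fold change 2.02 ± 0.29, edgeR adjusted p = 0.0414), but the adjusted p was near the threshold. The call was lost when any of the 6 libraries was left out, and with no filter on low counts, at log2 fold changes that stayed at 1.83 or above in all settings. Of 19 cell cycle genes tested it was the 1 called, and the list's median was -0.17 against 0.00 over all genes tested.

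Pla2g3, a secreted phospholipase A2 (ENSMUSG00000034579, plus strand at chr11:3488284-3499350), was low in every fed library, at 2.16, 1.66 and 1.34 CPM. At 24 h it stood at 6.88, 5.39 and 6.07 CPM, above every fed library. Pla2g3 thus rose 3.58-fold (1.84 ± 0.21 on the log2 scale, edgeR adjusted p = 0.00451), a call lost only when the 2 groups were fitted without the 72 h libraries. Itgad, the alpha D chain of a leukocyte integrin (ENSMUSG00000070369, plus strand at chr7:128154376-128223816), stood at 2.01, 1.56 and 1.96 CPM in the fed group and at 10.48, 8.53 and 11.3 CPM in the 24 h group. Its rise was 5.46-fold (2.45 ± 0.34, edgeR adjusted p = 0.0337), the highest of the 7 genes, but its call was lost when any fed library, 24 h library 1 or 3, or both libraries 2 were left out. Other annotated genes cover 45.0% of the span of Pla2g3 and 28.3% of that of Itgad. Counting options are not named in the labels, so reads of the shared stretches may come from a neighbour.

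Myh11, which encodes the smooth muscle myosin heavy chain (ENSMUSG00000018830, minus strand at chr16:14194535-14291372), fell. Fed libraries held 24.5, 15.6 and 20.4 CPM and 24 h libraries 8.54, 6.68 and 8.06 CPM. The lowest fed library was above the highest fasted one, and the fed mean was 2.60 times the 24 h mean in the fit (log2 fold change -1.38 ± 0.17, edgeR adjusted p = 0.0126). Ptprb, a receptor tyrosine phosphatase of endothelial cells also called VE-PTP (ENSMUSG00000020154, plus strand at chr10:116275523-116389535), stood at 81.6, 80.3 and 65.7 CPM in the fed group and at 50.03, 43.4 and 49.4 CPM in the 24 h group. This fall was smaller (-0.67 ± 0.10, edgeR adjusted p = 0.0358) and again without overlap. Myh11 lost its call without fed library 1, without 24 h library 3 and when the 2 groups were fitted alone. Ptprb lost its own without fed library 1 or 2, without 24 h library 1 or 3, when the 2 groups were fitted alone, with the replicate block and without fed library 2 and 24 h library 2 together.

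The levels at 72 h lay between the fed and the 24 h means for 5 of the 7 called genes. Arrdc2 stood at 18.6 ± 0.712 CPM at 72 h (SD, n = 3), against 8.98 ± 1.53 CPM in fed and 25.3 ± 1.58 CPM in the 24 h group, and this difference from 24 h was not called (72 h minus 24 h -0.44 ± 0.14, edgeR adjusted p = 0.109). Myh11 and Ptprb, the 2 genes called lower, were lower still at 72 h, at 5.42 ± 0.537 and 38.6 ± 0.812 CPM (SD, n = 3), neither called against 24 h (edgeR adjusted p = 0.120 and 0.109). These differences share the 24 h libraries with the main comparison.

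**Figure D2:**
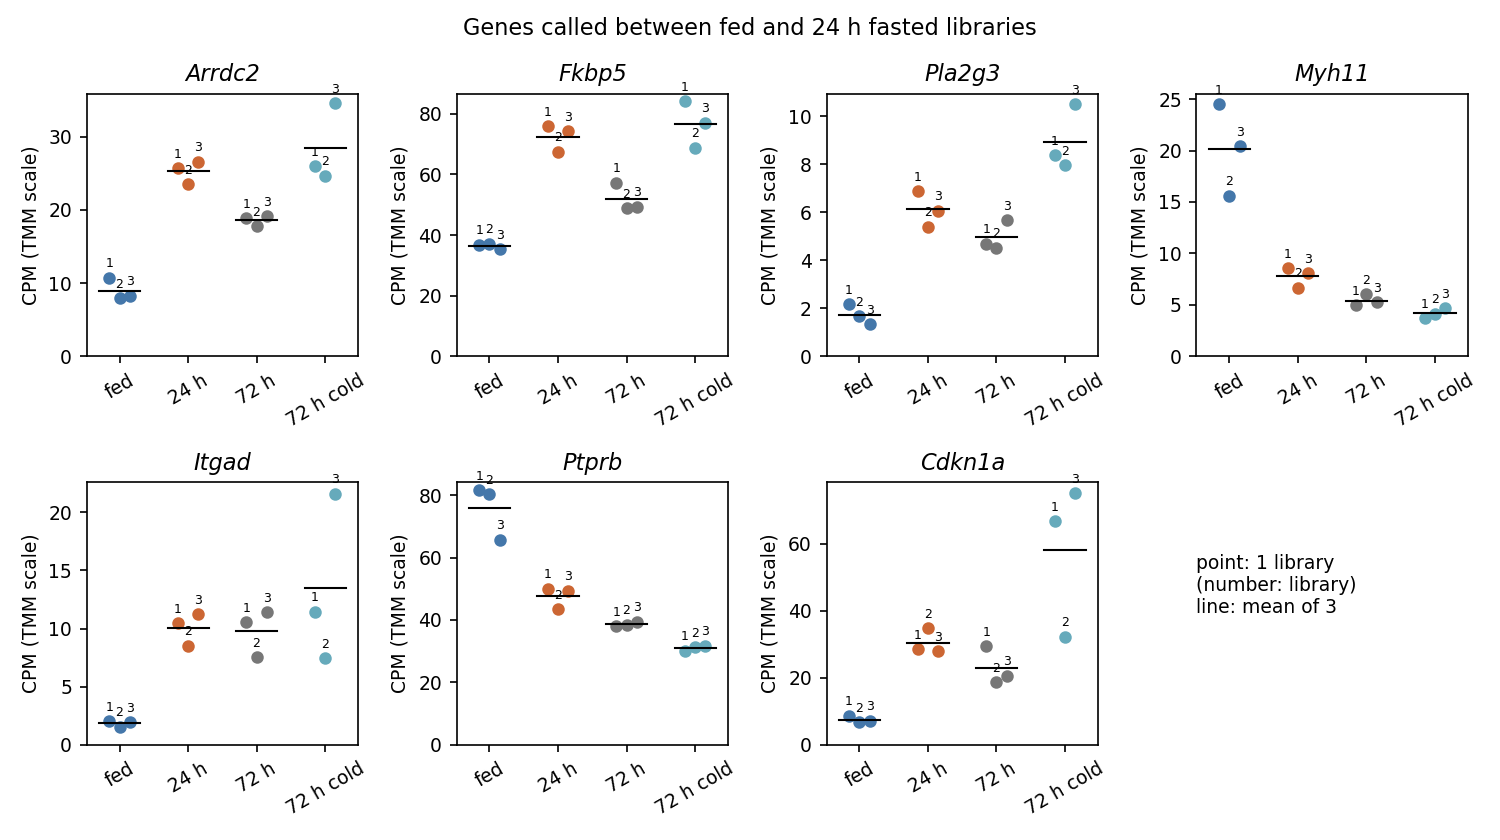
CPM (TMM scale, linear axes from 0) of the 7 called genes in each library of the 4 fasting-table groups, with the library number above each point and a line at the mean of 3. In each panel the fed and 24 h points do not overlap, for example 35.3 to 37.1 against 67.4 to 75.9 CPM for Fkbp5, and Fkbp5 is lower at 72 h than at 24 h.

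At an unadjusted p below 0.05 stood 2118 genes (10.4%), 1074 higher (5.26%) and 1044 lower (5.12%). How many were called depended on the test: DESeq2 called 241 genes and edgeR's likelihood ratio test 85 genes, and all 7 were among both. Without 24 h library 2, edgeR's quasi-likelihood test called 56 genes, 45 higher and 11 lower, and 6 of the 7 were among them.

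**Figure D3:**
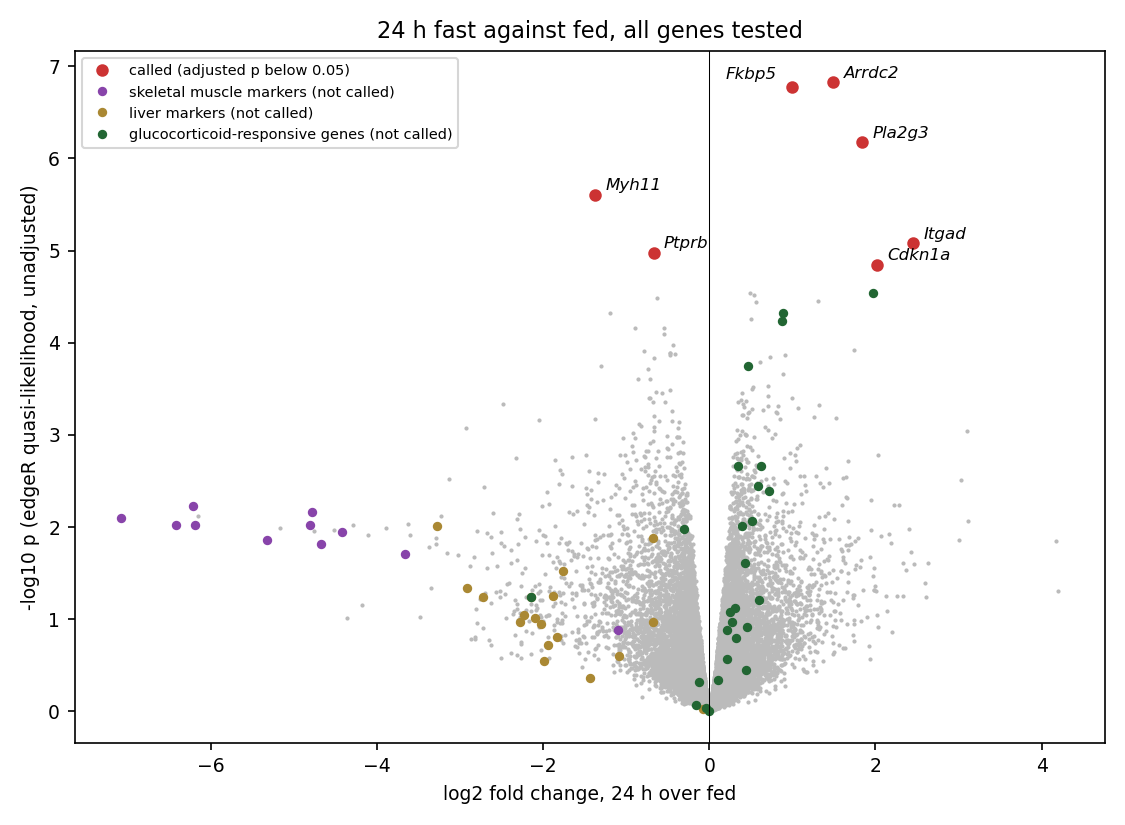
Each point is 1 of 20408 genes, with the log2 fold change (24 h over fed) across and -log10 of the unadjusted edgeR p upward; red points are the 7 called genes. Skeletal muscle markers (purple) reach log2 fold changes of -7.08 without a call, liver markers (brown) also lie to the left, and most glucocorticoid-responsive genes (green) lie to the right of 0.

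Glucocorticoid-responsive genes stood higher at 24 h as a group. Of 30 tested, 3 were called higher (Arrdc2, Fkbp5 and Cdkn1a) and none lower, and 14 had an unadjusted p below 0.05 as higher against 1 as lower. Over all genes tested 0.0245% were called higher, and 5.26% had such a p as higher and 5.12% as lower. Their median log2 fold change was 0.41, with 25 above 0, against a median of 0.00 over all genes. Summed over the list, the fed libraries held 1923, 1810 and 1675 CPM and the 24 h libraries 2140, 2597 and 2203 CPM, so every fasted library was above every fed one. Without fed library 2 and 24 h library 2 the median was 0.21 and 13 genes were higher at an unadjusted p below 0.05, where 7.34% of all genes were. The list was put together with earlier results of these data known, so its count is not independent evidence of its direction. Tat, a liver enzyme gene that is also among the liver markers, was the lowest member (-2.15) and is named here after its value was seen.

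Members of that list just outside the threshold included Plin4, which coats lipid droplets. Plin4 stood at 25.6, 39.1 and 21.1 CPM in the fed group and at 113, 106 and 116 CPM in the 24 h group (log2 fold change 1.97 ± 0.29, edgeR adjusted p = 0.0573). The fed libraries were more spread than the fasted ones, and every fasted library lay above 100 CPM. Sult1a1, a sulfotransferase, stood at 11.04, 13.6 and 10.2 CPM and at 19.8, 24.1 and 20.3 CPM (0.88 ± 0.15, adjusted p = 0.0655). Hif3a, a member of the hypoxia-inducible factor family, stood at 15.7, 15.01 and 19.6 CPM and at 32.4, 24.7 and 35.6 CPM (0.88 ± 0.15, adjusted p = 0.0697). In none of these did the groups overlap, which was required of genes named as near a call. Bcl6, a transcriptional repressor (0.34 ± 0.09, adjusted p = 0.261), and Ddit4, an inhibitor of mTORC1 (0.62 ± 0.16, adjusted p = 0.261), were not called either. Both were named for their small p within other lists, neither of which held a called gene. Of 19 insulin and FoxO genes, with Bcl6, 1 was higher at an unadjusted p below 0.05 and none lower (median 0.01). Of 18 genes of the ATF4 amino acid response, with Ddit4, 1 was higher and 1 lower (median -0.04).

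The other genes nearest to a call as higher came from several processes. Smox, a spermine oxidase, stood at 46.7, 47.5 and 44.0 CPM in the fed group and at 62.8, 66.8 and 65.0 CPM in the 24 h group (0.49 ± 0.08, adjusted p = 0.0573). Dtnb, which encodes beta-dystrobrevin, had 0.54 ± 0.09 with the same adjusted p. Cirbp, a cold-inducible RNA-binding protein, stood at 39.6, 39.3 and 37.4 CPM and at 58.3, 61.2 and 52.9 CPM (0.57 ± 0.09, adjusted p = 0.0573). The fed libraries of Smox and Cirbp were tightly grouped, and a lack of overlap with the fasted ones was required for naming both. Rbm3, another RNA-binding protein induced by cold, stood at 58.6, 45.1 and 43.7 CPM and at 83.4, 109 and 84.0 CPM (0.91 ± 0.17, adjusted p = 0.0992). Cirbp and Rbm3 were 2 of 4 cold-inducible RNA-binding protein genes tested, and the list's summed CPM overlapped between the groups. No body temperature is given with these samples.

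Gabrr2, a subunit of GABA receptors, stood at 3.91, 2.13 and 4.50 CPM in the fed group and at 14.96, 7.57 and 12.8 CPM in the 24 h group (1.74 ± 0.32, adjusted p = 0.0992). Izumo4 (0.73 ± 0.14) and Tspoap1, a scaffold of the presynaptic active zone (0.61 ± 0.12), were also near, as was Ttyh1, a membrane protein of glia (0.50 ± 0.08), whose span is 67.6% covered by other genes. Fbxw23, annotated as a transcribed pseudogene, had 1.31 ± 0.21 (adjusted p = 0.0573) and was lower at 72 h than at 24 h (-1.12 ± 0.21, edgeR adjusted p = 0.0245). Hr, a nuclear corepressor and thyroid hormone target, stood at 37.0, 40.8 and 25.0 CPM and at 61.5, 61.2 and 63.0 CPM (0.85 ± 0.19, adjusted p = 0.184). The fasted libraries of Hr were nearly equal and all above the fed ones.

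Markers of the vessel wall stood lower at 24 h. Of 14 endothelial markers 1 was called lower (Ptprb) and 9 were lower at an unadjusted p below 0.05, with a median of -0.39. Over all genes tested 0.00980% were called lower and 5.12% were lower at that p. Among 13 markers of pericytes and smooth muscle 1 gene was called lower (Myh11) and 9 genes were lower at an unadjusted p below 0.05, with a median of -0.81. Their summed levels did not overlap between the groups: endothelial markers held between 420 and 462 CPM in the fed group and between 329 and 369 CPM in the 24 h group, and pericyte and smooth muscle markers between 240.1 and 294 CPM in the fed group and between 162 and 163 CPM in the 24 h group. Without fed library 2 the pericyte and smooth muscle median was -0.40, with 8 of 13 still lower at an unadjusted p below 0.05, where 4.18% of all genes were.

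Acta2, smooth muscle actin, stood at 24.5, 13.7 and 19.8 CPM in the fed group and at 8.01, 7.42 and 8.06 CPM in the 24 h group (-1.30 ± 0.25, edgeR adjusted p = 0.112). Rgs5, a pericyte marker, stood at 112, 103 and 87.8 CPM and at 63.8, 65.1 and 61.6 CPM (-0.67 ± 0.16, adjusted p = 0.207). As with Myh11, the fasted libraries were close together and below all fed ones, though neither gene was called. Flt1, a VEGF receptor (-0.40 ± 0.10), Tie1, an angiopoietin co-receptor (-0.78 ± 0.20), and Abcb1a, the P-glycoprotein pump of the blood-brain barrier (-0.38 ± 0.09), were not called. Slc2a1, the glucose transporter GLUT1 of the same barrier, differed in sign from them. It stood at 45.0, 38.2 and 42.7 CPM in fed, at 55.7, 56.6 and 52.7 CPM in the 24 h group (0.39 ± 0.09, adjusted p = 0.207) and at 35.5 ± 1.21 CPM at 72 h (SD, n = 3), below the 24 h level (-0.63 ± 0.09, edgeR adjusted p = 0.00929).

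Markers of other tissues at the border of the hypothalamus were lower in the 24 h libraries too. Of 12 choroid plexus markers 7 were lower at an unadjusted p below 0.05, where 5.12% of all genes were, and none was called (median -0.91). Their sum was 365, 423 and 620.3 CPM in fed and 226, 263 and 229.7 CPM in the 24 h group, with no overlap. Ttr, the transthyretin gene and a defining marker, stood at 15.2, 85.7 and 180.3 CPM in the fed group and at 2.38, 22.1 and 4.86 CPM in the 24 h group, so fed library 1 was below 24 h library 2. Enpp2, autotaxin, which oligodendrocytes also make, stood at 298, 269.5 and 351 CPM and at 169, 192 and 173 CPM (-0.78 ± 0.15, adjusted p = 0.0992). Aqp1, a water channel, had its highest value in fed library 2, at 4.88 CPM against 1.14 and 1.57 CPM in the other fed and between 0.344 and 0.622 CPM in the 24 h libraries.

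Of 10 meningeal fibroblast markers all were below 0 and 4 were lower at an unadjusted p below 0.05 (median -0.71), with sums of 148, 173 and 115 CPM in fed and 69.5, 106 and 73.7 CPM in the 24 h group. Over all genes tested 5.12% were lower at that p. Col1a1, a collagen of fibroblasts, stood at 18.3, 29.95 and 13.4 CPM and at 7.01, 9.27 and 6.28 CPM (-1.45 ± 0.38, adjusted p = 0.270). Of 9 blood cell markers all were below 0 and 4 were lower at an unadjusted p below 0.05 (median -1.18). Hba-a1, a haemoglobin chain, stood at 2.28, 1.49 and 1.14 CPM and at 0.595, 0.628 and 0.326 CPM, and Hba-a1 shares near-identical sequence with a second copy. Of 10 ependymal markers 9 were below 0 and 4 were lower at an unadjusted p below 0.05 (median -0.40). Whether the amount of meninges, choroid plexus, blood or vessel in the dissections had a part in the falls of Myh11 and Ptprb was not tested.

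Skeletal muscle transcripts were high in a single library. The muscle list summed to 36.0, 1651 and 37.0 CPM in fed libraries 1 to 3 and to 27.6, 39.9 and 28.5 CPM in the 24 h libraries. Myh4, the myosin of fast muscle, was at 772 CPM in fed library 2 and at most at 9.22 CPM in the other five. Of 11 muscle markers 10 were lower at an unadjusted p below 0.05 (median -4.81), and without fed library 2 none was, with a median of -0.56. The shares of all genes were 5.12% and 4.18%. Liver markers summed to 324, 1418 and 540.4 CPM in the fed group and to 207, 396 and 235 CPM in the 24 h group. Alb, the albumin gene, stood at 0.493, 607 and 92.4 CPM in the fed group and at 31.1, 109 and 41.9 CPM in the 24 h group, with both groups widely spread. At 72 h Alb stood at 0.333 ± 0.172 CPM (SD, n = 3), so its high values were not confined to fed library 2. All 18 liver markers were below 0 (median -1.96), and without fed library 2 the median was 0.19, with 13 above 0.

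**Figure D4:**
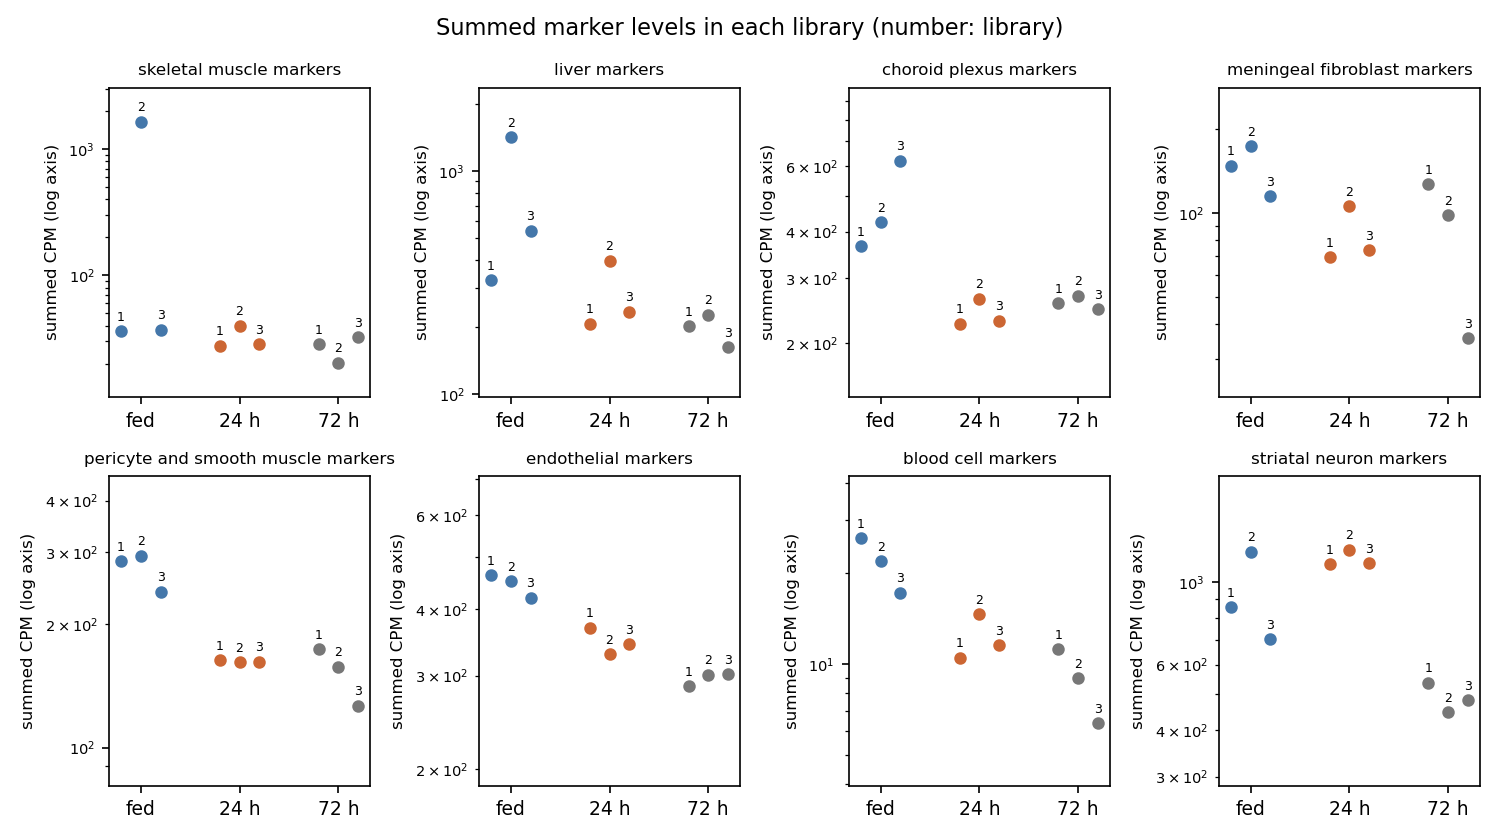
Summed CPM of 8 marker lists in each fed, 24 h and 72 h library (log axes, library number above each point). Muscle markers reach 1651 CPM in fed library 2 and lie between 27.6 and 39.9 CPM in the other fed and 24 h libraries, while pericyte and smooth muscle markers lie between 162 and 163 CPM in all 24 h libraries, below every fed library.

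Glial genes were among the nearest to a call as lower. Ednrb, the endothelin B receptor of astrocytes and endothelium, stood at 132, 126 and 105 CPM in the fed group and at 73.5, 86.3 and 75.0 CPM in the 24 h group (-0.63 ± 0.10, edgeR adjusted p = 0.0573). Ugt8a, which makes the galactolipids of myelin, stood at 121, 95.0 and 97.3 CPM and at 52.3, 63.2 and 53.0 CPM (-0.89 ± 0.16, adjusted p = 0.0742). In both genes the groups did not overlap, which was required of genes named as near a call. Opalin, a protein of mature oligodendrocytes, stood at 29.5, 23.7 and 22.5 CPM and at 12.6, 12.0 and 12.3 CPM (-1.04 ± 0.25, adjusted p = 0.214), and at 72 h it was higher than at 24 h (1.08 ± 0.24, edgeR adjusted p = 0.0478), back at 26.0 ± 3.43 CPM (SD, n = 3). Mobp, a myelin gene, had 0.32 ± 0.17. Over 12 oligodendrocyte markers the median was -0.15, 2 were lower at an unadjusted p below 0.05 and none higher. The median was -0.31 without 24 h library 2, with 3 lower and Ugt8a called (edgeR adjusted p = 0.0471). In that fit 10.2% of all genes were lower at an unadjusted p below 0.05, against 5.12% in the main fit.

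Astrocyte markers were divided. Agt, the angiotensinogen gene, stood at 152, 139 and 119.5 CPM in the fed group and at 174, 211 and 178 CPM in the 24 h group (0.46 ± 0.11, adjusted p = 0.239), and Fgfr3 had 0.33 ± 0.11. Aqp4, the water channel of astrocyte endfeet (36.8% covered by other genes), stood at 266, 214 and 165 CPM and at 97.7, 151 and 101 CPM (-0.88 ± 0.24, adjusted p = 0.285). Over 12 astrocyte markers 2 were higher and 2 lower at an unadjusted p below 0.05, with a median of -0.18. There were 4 lower without 24 h library 2, and the median was -0.31. In that fit 10.2% of all genes were lower, and in the main fit 5.26% were higher and 5.12% lower. Slc7a11, the cystine transporter, had -0.71 ± 0.15 (adjusted p = 0.169). Of 10 microglia markers 2 were lower at that threshold (median -0.12), among them the fractalkine receptor Cx3cr1 (-0.44 ± 0.13), of whose span other genes cover 57.4%. The microglia median was -0.39 without 24 h library 2, with all 10 markers below 0, and -0.06 without fed library 2. Further genes near a call as lower were Zeb2 (-0.55 ± 0.10), a transcription factor, Syne2 (-0.54 ± 0.10), which links the nucleus to the cytoskeleton, Rnf146 (-0.43 ± 0.08), a ubiquitin ligase gene with 31.3% of its span covered, Itga1 (-0.66 ± 0.13), an integrin chain with 44.8% of its span covered by other genes, and the noncoding Gm47431 (-1.19 ± 0.20). Fam205a2, Fam205a3 and Fam205a4 (-0.47 ± 0.09 each) are close copies of each other, so their counts are uncertain.

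The arcuate feeding circuit showed no called gene. Agrp, the orexigenic peptide, stood at 4.82, 5.08 and 4.78 CPM in the fed group and at 5.01, 4.98 and 5.33 CPM in the 24 h group (log2 fold change 0.06 ± 0.15). Other genes cover 59.9% of its annotated span. Npy, the other peptide of these neurons, stood at 15.4, 21.7 and 13.1 CPM and at 11.5, 23.1 and 13.9 CPM (-0.05 ± 0.25), with library 2 highest in both groups. Pomc, the precursor of alpha-MSH, stood at 5.69, 6.98 and 5.67 CPM and at 3.94, 5.80 and 3.29 CPM (-0.50 ± 0.27), and the 24 h library 2 lay within the fed range. Cartpt stood at 30.3, 21.9 and 16.0 CPM and at 16.6, 30.3 and 16.7 CPM (-0.10 ± 0.36). The signs of Npy and Cartpt turned when single libraries were left out, so they carry no direction.

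Of 25 feeding peptide genes tested none was called and none had an unadjusted p below 0.05 in either direction, against 10.4% of all genes, and their median was 0.02. Without 24 h library 2 there were 3 lower (12%, against 10.2% of all genes) and the median was -0.16. Pmch, melanin-concentrating hormone (72.4% of its span covered by other genes), and Crh, corticotropin-releasing hormone, had 0.31 ± 0.27 and 0.44 ± 0.37. Both were highest in 24 h library 2, and each changed sign under 2 alternative settings. Of 19 feeding receptors none was called. Adipor2, an adiponectin receptor, stood at 119, 104 and 103 CPM in the fed group and at 154 CPM in each 24 h library (0.50 ± 0.14, edgeR adjusted p = 0.285). Oprm1, the mu opioid receptor (55.6% covered), had -0.29 ± 0.12. Of 13 neuroendocrine genes none was called, and Crhr1, the receptor of corticotropin-releasing hormone, stood at 8.95, 6.91 and 9.91 CPM and at 14.4, 11.9 and 12.8 CPM (0.60 ± 0.21, adjusted p = 0.363). Kiss1 and Glp1r had too few counts to be tested. These p-values do not show that the peptides were unchanged.

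Genes of fuel use gave values in both directions. Of 25 genes of fatty acid oxidation and lipolysis none was called, and 5 were higher and 2 lower at an unadjusted p below 0.05 (median -0.03). Pnpla2, the triglyceride lipase ATGL, stood at 19.0, 26.6 and 14.5 CPM in the fed group and at 29.9, 33.4 and 30.8 CPM in the 24 h group (0.65 ± 0.19, adjusted p = 0.286). Plin5, a lipid droplet coat protein, stood at 0.948, 1.22 and 1.05 CPM and at 2.22, 1.88 and 2.61 CPM (1.06 ± 0.26, adjusted p = 0.243). Both were above the fed range in every fasted library, as was Cpt1c, the neuronal carnitine palmitoyltransferase (0.25 ± 0.08). Of 22 cholesterol and fatty acid synthesis genes none was called and 19 were below 0 (median -0.16), among them Scd1, a desaturase (-0.46 ± 0.21). At an unadjusted p below 0.05 stood 2 of the 22 as lower, and 9 without 24 h library 2 (median -0.25). All genes tested had 5.26% higher and 5.12% lower in the main fit, and 10.2% lower without 24 h library 2. Of 24 glycolysis and glucose transport genes 1 was higher and 2 lower at that threshold (median -0.05), and without 24 h library 2 there were 5 lower (median -0.19). Hk2, a hexokinase, had -0.64 ± 0.28, with its highest value in fed library 2, at 15.5 CPM against 7.51 and 5.75 CPM in the other fed and between 5.69 and 6.76 CPM in the 24 h libraries.

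Chaperones of the endoplasmic reticulum stood slightly lower. Of 20 tested none was called, 8 were lower at an unadjusted p below 0.05 and 18 were below 0, with a median of -0.20. Pdia4, a disulfide isomerase, stood at 62.8, 61.9 and 52.3 CPM in the fed group and at 37.5, 48.5 and 39.6 CPM in the 24 h group (-0.49 ± 0.12, edgeR adjusted p = 0.248). Hsp90b1, the chaperone GRP94 (30.9% of its span covered), had -0.38 ± 0.13, with an overlap through 24 h library 2. The count of 8 was 2 without fed library 2 and 14 without 24 h library 2. All genes tested had 5.12% lower in the main fit, 4.18% without fed library 2 and 10.2% without 24 h library 2. Heat shock chaperones had a median of -0.16, with 1 of 20 lower at that threshold. Their median was -0.33 without 24 h library 2 and 13 of 20 were lower. Without both libraries 2 there were 10 of 20 lower, where 7.32% of all genes were. Of 21 interferon-stimulated genes none was called and 4 were lower (median -0.37), among them the guanylate-binding proteins Gbp3 (-1.09 ± 0.34) and Gbp2 (-1.05 ± 0.34), and 7 were lower without 24 h library 2. Of 17 clock genes none was called and 2 were higher (11.8%, against 5.26% of all genes), Npas2 (0.45 ± 0.18) and Tef (0.21 ± 0.09). The labels give no hour of sampling.

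Neuronal activity genes and markers of neighbouring brain regions held no called gene. Of 30 immediate early genes 2 were lower at an unadjusted p below 0.05 (6.67%, against 5.12% of all genes), Nr4a2 (-0.57 ± 0.24) and Btg2 (-0.35 ± 0.16), and the median was -0.03. Both overlapped between the groups. Without 24 h library 2 the median was -0.26, with 26 of 30 below 0 and 4 lower (13.3%, against 10.2% of all genes). Without both libraries 2 there were 8 lower (26.7%, against 7.32% of all genes). All 12 striatal neuron markers were above 0 (median 0.35), with 1 higher at an unadjusted p below 0.05 (8.33%, against 5.26% of all genes), Rgs9 (0.56 ± 0.22). Their sum was 855, 1206 and 702 CPM in fed and 1114, 1221 and 1121 CPM in the 24 h group, and fed library 2 fell inside the fasted range. Without fed library 2 the striatal median was 0.69, with 5 of 12 higher at an unadjusted p below 0.05 (41.7%, against 3.67% of all genes). Whether striatal tissue in the dissections had a part in these values was not tested. Of 16 hypothalamic neuron markers none was called and the median was -0.11 (0.07 without fed library 2), with sums between 268 and 377 CPM in the fed group and between 291 and 356 CPM in the 24 h group. Map2, a dendritic protein, stood at 2357, 2144 and 2197 CPM and at 1700.0, 1833 and 1714 CPM (-0.35 ± 0.10, adjusted p = 0.291).

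The medians of the large housekeeping families turned with single libraries. Nuclear oxidative phosphorylation genes had a median of 0.02 over 32 genes and cytosolic ribosomal protein genes -0.02 over 35 genes. Without 24 h library 2 the medians were -0.19 and -0.29, with 30 of 32 and 34 of 35 genes below 0. In that fit 2 and 15 were lower at an unadjusted p below 0.05 (6.25% and 42.9%, against 10.2% of all genes). Without fed library 2 the medians were 0.06 and 0.08. The ribosomal protein sum was high in fed library 1, fed library 2 and 24 h library 2 and lower in the other three, at 4626, 4833 and 3456 CPM in the fed group and at 3434, 5604 and 3585 CPM in the 24 h group. Meg3, a nuclear long noncoding RNA, went the other way, with 918, 639 and 1758 CPM in fed and 2616, 800 and 2401 CPM in the 24 h group (0.81 ± 0.42, edgeR adjusted p = 0.531). Snhg11, a host gene of small nucleolar RNAs annotated as protein-coding, had the same order within each group, with 403, 305 and 797 CPM and 1117, 483 and 1042 CPM. The 3 libraries with low Meg3 were those with the most mitochondrial-like reads, in both groups.

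**Figure D5:**
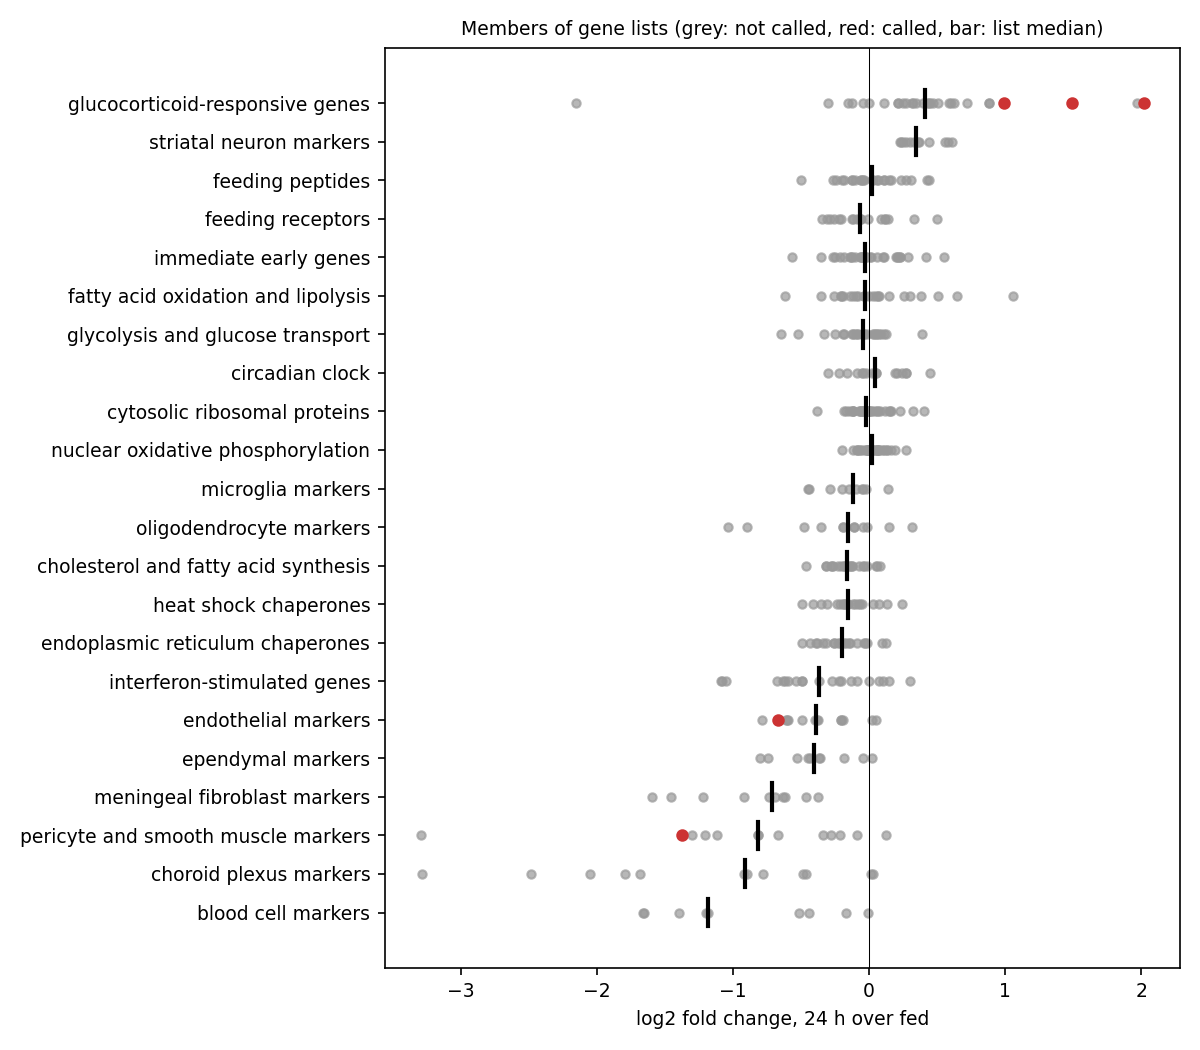
Log2 fold change (24 h over fed) of each tested member of 22 gene lists, with called genes in red, others in grey and a bar at each list's median. Glucocorticoid-responsive genes have a median of 0.41 and feeding peptides of 0.02, while the marker lists of vessels, meninges, choroid plexus and blood lie to the left, at medians between -1.18 and -0.39.

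The authors' deposited table of the same comparison, limited to 18234 protein-coding genes, held more calls. Among these, 169 genes (0.927%) of the authors' deposited table had a Benjamini-Hochberg q below 0.05, 38 higher (0.208%) and 131 lower (0.718%) at 24 h, and 25 (0.137%) passed the Holm adjustment, 11 higher (0.0603%) and 14 lower (0.0768%). Of the 15696 genes in both analyses 15320 (97.6%) had the same direction in the authors' deposited table as here, from the same counts. Of the 7 genes called here 6 are among the authors' calls, and Ptprb is not, with a q of 0.102 in the authors' deposited table.

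Of the authors' 38 genes higher at 24 h, 33 were tested here and 6 are in the glucocorticoid list. In 30 of the 33 the groups did not overlap, against 6.49% of all genes tested as higher. The calls come from the same counts, so the lack of overlap is no separate evidence for them. Of the 131 lower genes 88 were tested here, and in 51 of these fed library 2 was the highest fed library. In 28 of the 88 it was more than 3 times every other fed and 24 h library, and 22 of the 88 overlapped between the groups. The lower genes include 9 skeletal muscle markers, 5 choroid plexus markers, 4 pericyte and smooth muscle markers, 3 meningeal markers and 3 blood cell markers, and no endothelial marker. The split of higher against lower calls was 38 to 131 in the authors' deposited table, which used a likelihood ratio test. A likelihood ratio test of protein-coding genes here, on the fed and 24 h libraries alone, gave 25 to 51, and the quasi-likelihood test 5 to 2.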

How the data were processed

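Per the labels' protocols, hypothalamic RNA was purified with Qiagen RNeasy, ribosomal RNA was removed, and directional libraries were prepared. HISAT2, featureCounts, edgeR and the mm10 build (GRCm38) are named, without versions, in the submitters' processing notes. The authors deposited raw, whole-number counts per gene. They also deposited a table with a log2 fold change, a likelihood ratio p-value and 2 adjusted values for each protein-coding gene. Its adjusted values were checked to be the Benjamini-Hochberg and Holm adjustments of its p-value, and its sign, fed over 24 h, was turned round here.

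The 12 libraries of the fasting table were fitted together with edgeR 4.0.16 (R 4.3.3): filterByExpr, TMM scaling, robust quasi-likelihood tests, a prior count of 0.125 and a threshold of 0.05. The fit was also run on simulated counts, drawn gene by gene without the shifts of many genes in single libraries seen here. That run does not show how the fit handles such shifts. Gene spans and overlaps come from GENCODE M21. Every pair of replicates differed by more than sampling noise (chi-square per degree of freedom from 3.51 to 106, genes averaging 20 counts or more). Alternatives were DESeq2 1.42.0, limma 3.58.1 (voom with quality weights), other scalings, filters and fits, a replicate block, and fits without single libraries.

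The gene lists and the libraries to leave out were chosen with earlier results of these data known. Named genes were the 7 called, the 12 uncalled with the smallest p in each direction (symbol, mean of at least 1 CPM, no overlap), Agrp, Npy, Pomc, Cartpt and the 3 feeding or neuroendocrine genes with the smallest p in each direction, and 3 of each other list, plus the 2 with the highest CPM of each marker list. A part of these is printed.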

Additional observations from a re-analysis of the deposited data

Results flagged for a closer look

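The level at 72 h of fasting differed from that at 24 h, tested directly between these groups by edgeR, for 5 of the 97 genes examined for the text, where 333 of 20408 genes tested (1.63%) were called. Fkbp5 was lower at 72 h (72 h minus 24 h -0.485 ± 0.098, adjusted p = 0.0326), as were Fbxw23 (-1.12 ± 0.21, adjusted p = 0.0245), Slc2a1 (-0.633 ± 0.092, adjusted p = 0.00929) and Bcl6 (-0.457 ± 0.090, adjusted p = 0.0287). Opalin was higher (1.08 ± 0.24, adjusted p = 0.0478). For all 5 genes the 72 h mean in CPM was nearer to the fed mean than to the 24 h mean. On the log2 scale Fkbp5 was not, with 0.994 for 24 h minus fed and -0.485 for 72 h minus 24 h. Both comparisons use the 24 h libraries.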

How the results depend on the processing

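The 7 calls (5 higher, 2 lower) became 8 (6 and 2) with RLE scaling and 8 (5 and 3) with upper quartile scaling. They became 13 (8 and 5) with no filter, 12 (9 and 3) with a mean of at least 1 CPM, 85 (43 and 42) with the likelihood ratio test, 241 (128 and 113) with DESeq2 and 3951 (1841 and 2110) with limma voom and quality weights. With fed and 24 h libraries fitted alone there were 6 (5 and 1), 4 of them among the 7. The likelihood ratio test on these libraries alone gave 72 (23 and 49), and 76 (25 and 51) when this was also limited to protein-coding genes. Excluding fed library 2 and 24 h library 2 gave 5 (3 and 2), 4 of them among the 7; this and the protein-coding fit were chosen after seeing the data. Leaving out single libraries gave between 3 and 56 calls, 3 to 45 higher and 0 to 11 lower; 24 h library 2 gave the highest count and 24 h library 3 the lowest. The cause was not tested. With the replicate block there were 8 calls (7 and 1), 6 of them among the 7. Deviations from the group means correlated at -0.128, 0.398 and 0.492 between fed and 24 h libraries of the same number. Between libraries of unlike numbers the correlations ran from -0.624 to 0.545. These values do not settle whether the numbers pair the samples.

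Among 97 genes, 1461 values kept direction and side of the threshold, 238 gained a call, 25 lost it and 12 turned sign. When single libraries were left out Cartpt ranged from -0.45 to 0.16, Npy from -0.39 to 0.19, Crh from -0.0010 to 0.65 and Alb from -2.68 to 0.38 (the last without fed library 2). Voom gave Crh -0.028, Pmch -0.049 and Alb 1.80, and excluding both libraries 2 gave Pmch -0.054. Of the list medians, 34 moved by more than the median SE of their genes and 685 did not. Depth limits genes near 1 CPM, about 30 counts a library.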
